A study of Ascaris suum with 62 samples.

Results

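The CENP-A peaks of testis3 were set against those of ovary3, the last-numbered lists of the 2 gonads of the pig roundworm *Ascaris suum*. All peaks of both lists entered the comparison, 9197 of testis3 and 17643 of ovary3, which is 26840 of the 163819 peaks in 12 lists. CENP-A chromatin immunoprecipitation with sequencing (ChIP-seq) was run on testis, ovary, embryos and L1 larvae, and each list came with the reads of 2 libraries, 1 single-end and 1 paired-end per the labels. The labels give testis and ovary as the tissues, with no strain, age, treatment or number of animals, and they do not say what the numbers 1 to 3 stand for. Nothing says that the 2 libraries of a list came from separate animals, so p-values here measure the spread between libraries, which may be technical. Neither tissue could be checked against marker genes, because the tables hold positions on scaffolds and no gene names. In tissue samples, fewer cells with CENP-A at a site and less CENP-A per cell cannot be told apart.

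CENP-A is the histone H3 variant that marks the chromatin on which kinetochores are built. *Ascaris* chromosomes are holocentric, so CENP-A is spread along their length in place of a single centromere. During early cleavage the cells that become somatic lose part of the genome by programmed DNA elimination, while the germline keeps it. Chromosome fragments without kinetochores are not drawn to the spindle poles in mitosis. The authors marked each peak as lying in retained or eliminated DNA.

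The 2 testis3 libraries differed from each other far more than the 2 ovary3 libraries did, so read densities are given for each column below. Over peaks of at least 200 bp, log reads per kb correlated between the columns at 0.344 in testis3 and 0.886 in ovary3. Reads per kb, scaled throughout to 1000000 reads in peaks of the library, were at least 2-fold apart between the columns in 15.2% of testis3 peaks and 0.130% of ovary3 peaks. The same share was 0.166% to 3.06% in the other 10 lists. Reads in peaks were 4646881 and 4935948 in testis3 and 6421577 and 7971186 in ovary3, so total reads were similar within each list. Which column holds the single-end reads is not given in the headers, and whether read layout goes with the difference was not tested.

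Testis3 peaks covered less of the genome than ovary3 peaks. The testis3 list covered 19.0 Mb, 6.70% of the 284 Mb that peaks of any list span, and the ovary3 list covered 43.5 Mb, or 15.3%. The median width was 1517 bp in testis3 (quartiles 1072 and 2474 bp) and 1797 bp in ovary3 (quartiles 1193 and 3008 bp). Peaks lay on 329 scaffolds in testis3 and on 370 in ovary3. Each group has 1 peak list for its 2 libraries, and how the libraries entered the peak call is not given. Numbers, widths and covered lengths thus have no replicate error and no test. The covered length also sets the mean read density, at 52.6 reads per kb in testis3 and 23.0 in ovary3, so levels of the 2 lists are read below against these means.

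The share of peaks that met the other list was larger in testis3 than in the longer ovary3 list. An overlap of at least 1 bp joined 5045 testis3 peaks (54.9%, 95% Wilson interval 53.8% to 55.9%, counting error only) to 4840 ovary3 peaks (27.4%, 26.8% to 28.1%). With at least 50% of the peak covered the shares were 41.5% in testis3 and 16.8% in ovary3, and in the upper 50% of each list by reads per kb 47.0% and 24.1%. Peaks with an overlap of at least 1 bp are called shared below, and the other 4152 testis3 peaks and 12803 ovary3 peaks list-only. The shared sequence came to 8.56 Mb, which is 44.98% of the testis3 length and 19.7% of the ovary3 length. The Jaccard index, the shared length over the joint length, was 0.158, where the unequal lengths allow at most 0.437. It was 0.422 for testis1 with ovary1 (at most 0.750) and 0.182 for testis2 with ovary2 (at most 0.462).

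Shared peaks were wider than list-only peaks on both sides. The median width was 1824 bp for shared and 1272 bp for list-only testis3 peaks, and 2434 bp for shared and 1627 bp for list-only ovary3 peaks. With testis3 peaks ranked by width, 36.8% of the narrowest 25% and 74.1% of the widest 25% were shared. With ovary3 peaks ranked by width, these shares were 16.5% and 43.8%. A wider peak has more room to overlap by 1 bp, and how much of the gradient that gives was not tested. Shared peaks held 70.2% and 67.7% of the reads of the 2 testis3 columns, against 40.5% and 40.8% in ovary3. They made up 12.7 Mb of the testis3 list and 16.0 Mb of the ovary3 list.

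**Figure D1:**
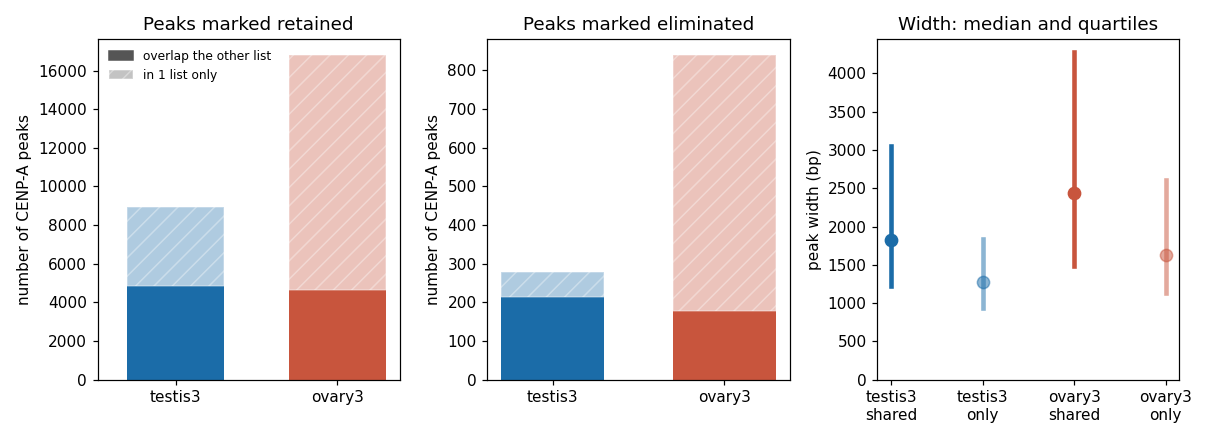
Number of CENP-A peaks marked retained (left) and eliminated (middle) in testis3 and ovary3, split into peaks that overlap the other list (solid) and list-only peaks (hatched), and the width in bp of shared and list-only peaks (right, points are medians and bars quartiles). Eliminated peaks were mostly shared in testis3 (213 of 278, 76.6%) and mostly list-only in ovary3 (661 of 839, 78.8%). Over all peaks, 54.9% were shared in testis3 and 72.6% were list-only in ovary3.

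Where a peak of 1 list met a single peak of the other, the testis3 peak was usually the narrower. Of 3164 such pairs, 1937 (61.2%) had the narrower peak in testis3, and the median widths were 1739 bp in testis3 and 2274 bp in ovary3. Their centres were a median of 587 bp apart and their overlap a median of 1222 bp. A testis3 peak lay wholly inside an ovary3 peak 1786 times, and an ovary3 peak wholly inside a testis3 peak 952 times. List-only testis3 peaks lay a median of 4780 bp from the nearest ovary3 peak, with 661 (15.9%) more than 20 kb away. List-only ovary3 peaks lay a median of 18430 bp from the nearest testis3 peak, with 6193 (48.4%) more than 20 kb away, and the ovary3 list is the longer of the pair.

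The widest peaks show both patterns. The widest testis3 peak, marked retained, lay on scaffold 145 from 95195 to 121523 (26328 bp), with 157 and 67.9 reads per kb in the 2 testis3 columns. 3 ovary3 peaks covered 55.0% of it, with 52.1 and 49.5 reads per kb. The widest ovary3 peak, marked eliminated, lay on scaffold 158 from 83400 to 118615 (35215 bp). 5 testis3 peaks covered 15.9% of it, with 114 and 72.0 reads per kb in testis3, against 45.9 and 54.6 in ovary3. Both lists were above their mean density there. All positions are the authors' on the scaffolds of the AgBionano_v1.9 assembly, and the headers do not say whether starts count from 0 or 1.

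Over both marks together, list-only peaks had slightly lower read densities than shared peaks. In testis3, shared peaks had a median of 41.0 reads per kb in column 1 and 47.4 in column 2, and list-only peaks 36.6 and 45.3. Eliminated testis3 peaks went the other way, with 86.1 and 37.1 in the 213 shared and 148 and 59.4 in the 65 list-only peaks. In ovary3, shared peaks had 22.9 and 22.7 and list-only peaks 20.7 and 20.5. In testis3 the share of peaks that were shared was 43.3% in the lowest 25% and 69.3% in the highest 25% by column 1 density. By column 2 density these shares were 51.5% and 60.2%. In ovary3 they were 16.8% and 39.7% by column 1, and 16.1% and 41.3% by column 2.

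Most eliminated testis3 peaks lay on an ovary3 peak, while most eliminated ovary3 peaks were list-only. Of 278 eliminated testis3 peaks, 213 were shared (76.6%, Wilson interval 71.3% to 81.2%), against 54.2% of retained testis3 peaks. Of 839 eliminated ovary3 peaks, 178 were shared (21.2%, 18.6% to 24.1%), against 27.7% of retained ovary3 peaks. Eliminated peaks made up 3.02% of testis3 peaks and 4.76% of ovary3 peaks. Testis3 peaks covered 4.28% of the eliminated spans and 6.81% of the retained spans, a ratio of 0.629. Ovary3 peaks covered 20.6% and 15.1%, a ratio of 1.37. In the upper 50% of each list by reads per kb the ratio was 0.956 in testis3 and 1.26 in ovary3, and with testis3 ranked by column 1 or column 2 alone it was 1.10 or 0.519 in testis3. With ovary3 cut to the covered length of testis3 by density, the ovary3 ratio was 1.44. A span here is the stretch held by successive peaks of 1 mark in the pooled 12 lists, bounded at the midpoint to the next stretch. The ratio was 0.607 in ovary1, 0.574 in ovary2, 0.715 in testis1, 0.242 in testis2 and 0.690 at 0hr. With all peaks of each list, ovary3 alone of the 12 lists had a ratio above 1.

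The 2 testis3 columns gave opposite orders of eliminated and retained peaks by median read density, but not by pooled density. In column 1 of testis3 the median was 94.8 reads per kb in eliminated peaks and 38.5 in retained peaks, a ratio of 2.46. In column 2 of testis3 it was 38.9 and 46.5, a ratio of 0.837. The ovary3 ratios were 0.954 (20.3 and 21.3) and 0.913 (19.4 and 21.2). The ratio of medians was above 1 in all libraries of testis1, testis2, ovary1 and ovary2, between 1.34 and 2.05. With reads and length pooled over peaks, the ratio was above 1 in each library of both lists. It was 3.235 and 1.331 in columns 1 and 2 of testis3, and 1.381 and 1.408 in ovary3. Eliminated peaks held 8.81% and 3.82% of the reads in peaks in testis3, against 8.23% and 8.38% in ovary3. The means were 6.32% ± 3.53 in testis3 and 8.31% ± 0.103 in ovary3 (SD, n = 2 libraries each), with p = 1.0 in a two-sided exact permutation test whose smallest possible p is 0.333. The ovary3 values lie between the 2 testis3 values.

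**Figure D2:**
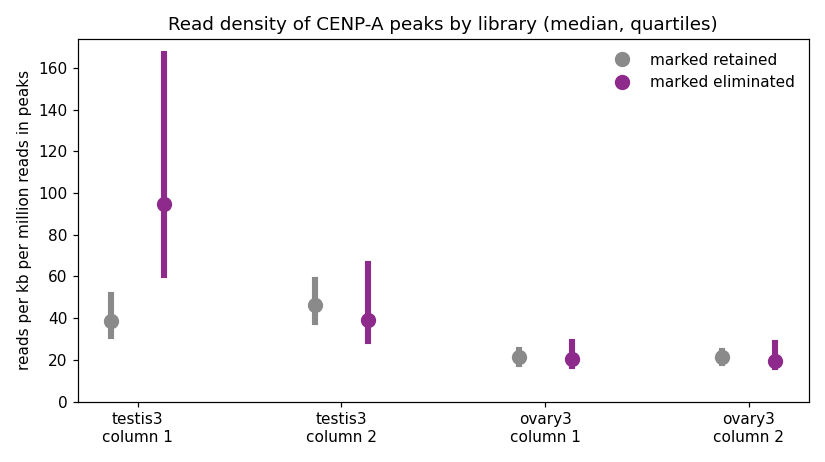
Reads per kb scaled to 1000000 reads in peaks (vertical axis) in peaks marked retained (grey) and eliminated (purple), for each column of testis3 and then ovary3, with points as medians and bars as quartiles. Eliminated peaks had the higher median in column 1 of testis3 (94.8 against 38.5) and the lower median in the other 3 libraries.

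Peaks on which the testis3 columns differed at least 2-fold fell into 2 unlike sets. In 583 testis3 peaks column 1 was the higher, and 155 of these (26.6%) were marked eliminated. In 813 testis3 peaks column 2 was the higher, and 0 of these were marked eliminated, which allows a share of up to 0.369% (3 peaks of the total). Of the column 1 set, 89.9% overlapped a testis1 peak, 81.7% an ovary1 peak and 73.9% an ovary3 peak. Of the column 2 set, 28.9% overlapped a testis1 peak, 17.8% an ovary1 peak and 53.3% an ovary3 peak. Of the 7801 testis3 peaks within 2-fold, 67.8% overlapped a testis1 peak, 51.0% an ovary1 peak and 53.6% an ovary3 peak. The ovary3 share of the column 2 set was thus near that of the peaks within 2-fold. Of the peaks within 2-fold, 1.58% were marked eliminated. With eliminated peaks left out, 71.7% of the column 1 set, 53.3% of the column 2 set and 53.3% of the peaks within 2-fold overlapped an ovary3 peak. For 0hr peaks the overlap was 59.4% in the column 1 set, 56.7% in the column 2 set and 56.0% in the peaks within 2-fold.

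Read density was then compared within shared regions, each a run of peaks of both lists joined by overlap. There were 4213, of which 4046 were retained, 166 eliminated and 1 of both marks. With reads scaled to each library's reads in peaks, 2645 regions (62.8%) were higher in testis3 and 5 (0.119%) lower, at adjusted p under 0.05 by edgeR's quasi-likelihood test. The median over all regions was a log2 fold change of 1.02, and the unequal covered lengths shift this scale by construction. Scaled to the reads and length inside the shared regions, where the median was -0.07, 2 regions were higher and 1 lower. At an unadjusted p under 0.05 there were then 86 higher and 277 lower, while TMM (trimmed mean of M-values) scaling called 2 and 1 and DESeq2 99 and 98. The same 3 regions passed under both of the centred edgeR scalings, and each holds a peak of 3 or 6 bp in 1 list, where a density is not meaningful. With only peaks of at least 200 bp, 0 of 4067 regions passed in either direction after scaling within the shared regions, and 42 were higher and 245 lower at an unadjusted p under 0.05. In counts simulated for the 4213 regions on the reads-in-peaks scale, the test found 36% of 2-fold and 100% of 4-fold changes. The simulation gave all libraries the same spread, while the testis3 columns were further apart than the ovary3 columns. These shares may therefore not hold for the data, and differences of about 2-fold can go uncalled.

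Each testis3 column was also set alone against ovary3. Scaled within the shared regions and scaled within the shared regions, column 2 of testis3 gave 1011 regions higher and 1132 lower than ovary3, and column 1 gave 683 higher and 1880 lower. In these fits the lone testis3 library is assumed to vary like the ovary3 pair. On the reads-in-peaks scale, 65 regions were higher without column 1 and 57 without column 2 of ovary3, where the spread comes from the testis3 columns. Relative to the mean of ovary3, at least 2-fold differences the same way in both testis3 columns were found in 35 regions upward and 47 downward. The columns had the same sign in 50.4% of regions. Log density over the regions correlated at 0.372 between the testis3 columns and at 0.924 between the ovary3 columns. It correlated with ovary3 at 0.552 and 0.574 for column 1 of testis3 and at 0.346 and 0.337 for column 2. These are descriptions over regions that share libraries.

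Eliminated regions were where the columns parted most. Relative to ovary3, scaled within shared regions, the median log2 difference over the 166 eliminated regions was -0.01 in column 1 of testis3 and -1.02 in column 2. Over the 4046 retained regions it was -0.27 in column 1 and -0.01 in column 2. In eliminated regions 13 were at least 2-fold up and 4 at least 2-fold down in column 1, and 1 up and 85 down in column 2. The median eliminated region had 86.2 and 37.9 reads per kb in testis3, against 35.7 and 36.6 in ovary3. Of the 166 eliminated regions, 33 (19.9%) were called higher on the reads-in-peaks scale, against 64.6% of retained regions.

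**Figure D3:**
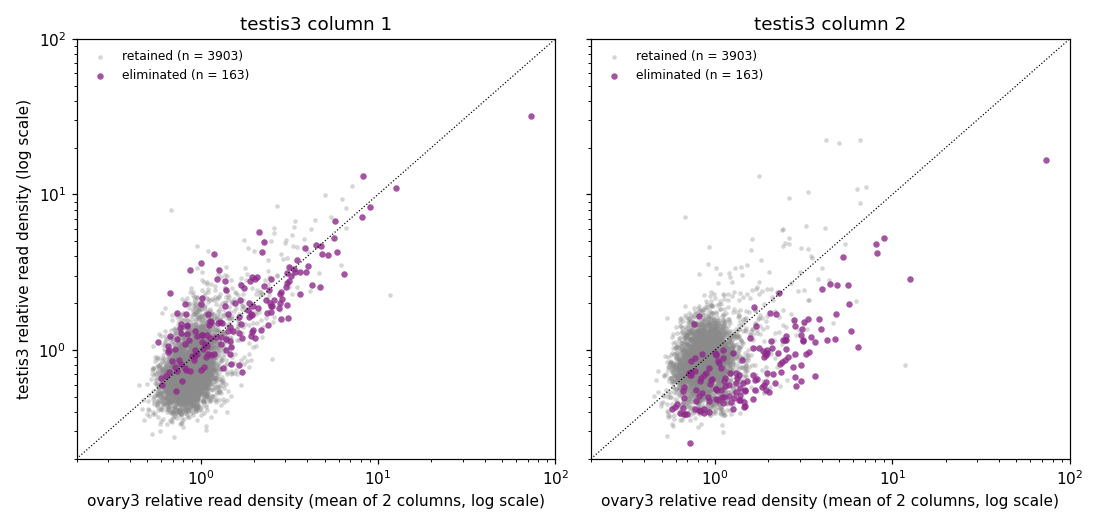
Relative read density of shared regions in column 1 (left) and column 2 (right) of testis3 on the vertical axis against the ovary3 mean on the horizontal axis, both log scales with 1 as the mean density inside shared regions, for peaks of at least 200 bp, with the dotted line marking equal values. Eliminated regions (purple) lie about the line in column 1 and mostly below it in column 2, with medians over all 166 of -0.01 and -1.02 on the log2 scale.

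Among called regions with at least 2 kb of peaks in both lists, all 1202 were higher on the reads-in-peaks scale. That scale is shifted upward by construction, with a median log2 fold change of 1.02 over all 4213 regions. On it, 2645 of these (62.8%) were called higher and 5 (0.119%) lower. The region with the highest fold lay on scaffold 71 from 28587 to 35342, with 69.7 and 166 reads per kb in testis3, against 22.3 and 18.8 in ovary3. Its log2 fold change was 2.52 ± 0.49 (SE; edgeR adjusted p = 0.0268), and relative to all shared regions 1.43 ± 0.48 (adjusted p = 0.52). On scaffold 129 from 280032 to 284452, in eliminated DNA, testis3 had 110 and 88.2 reads per kb, against 19.1 and 22.3 in ovary3. There the columns were close, and both lay above ovary3. Its log2 fold change was 2.26 ± 0.24 (SE; edgeR adjusted p = 0.0268), and relative to all shared regions 1.16 ± 0.23 (adjusted p = 0.311). Among the lowest folds that passed, the region on scaffold 344 from 57595 to 64841 had 35.03 and 35.73 reads per kb in testis3, against 22.7 and 23.4 in ovary3. Relative to all shared regions its log2 fold change was -0.48 ± 0.21 (SE; edgeR adjusted p = 0.609), the opposite sign to the 0.62 ± 0.20 on the reads-in-peaks scale.

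The other named regions follow the same 2 forms. The remaining 3 of the 5 highest folds lay on scaffolds 301, 28 and 46, with log2 fold changes of 2.29, 2.25 and 2.12 on the reads-in-peaks scale and 1.20, 1.15 and 1.04 relative to all shared regions. On scaffold 28, from 67916 to 75460, testis3 had 185 and 119 reads per kb and ovary3 34.1 and 29.7. On scaffold 301, from 20986 to 25972, testis3 had 71.8 and 181 and ovary3 26.9 and 24.8, so that the second testis3 column carried most of the difference. The remaining 4 of the 5 lowest folds, on scaffolds 32, 24 and 13 (a pair), were between 0.62 and 0.64 on the reads-in-peaks scale and between -0.48 and -0.46 relative to all shared regions.

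Of the peaks chosen for their density, the densest retained testis3 peak of at least 200 bp lay on scaffold 597 from 11126 to 12371, with 551 and 1144 reads per kb in testis3 and 125 and 131 in the ovary3 peak that overlapped it. By the mean of both columns, over peaks of at least 200 bp, the densest peak of both lists was the same eliminated site on scaffold 35. There the testis3 peak ran from 1279832 to 1281754 with 1763 and 893 reads per kb, and the ovary3 peak from 1279903 to 1281257 with 1534 and 2181. On the reads-in-peaks scale the testis3 and ovary3 values overlap at this site. Relative to the list means of 52.6 reads per kb in testis3 and 23.0 in ovary3, both ovary3 columns were above both testis3 columns. By column 2 of testis3 alone other peaks were denser, up to 1337 reads per kb.

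Cover of eliminated DNA was then compared block by block. There were 67 eliminated blocks, of which 37 held a testis3 peak and 59 an ovary3 peak. Cover, the percent of length inside peaks, was lower in testis3 in 59 blocks (88.1%) and higher in 1, and 7 blocks had no peak in either list. This share is near that of all scaffolds of at least 200 kb, of which 201 of 223 (90.1%) had less cover in testis3. The median over blocks was 1.21% in testis3 and 18.3% in ovary3. Of the 37 blocks with testis3 peaks, 36 had the higher read density in column 1 of testis3. Of 18 wholly eliminated scaffolds of at least 100 kb, all 18 had less cover in testis3, a direction that the shorter testis3 list gives on most scaffolds. Blocks are not replicates, since each group has 1 peak list.

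**Figure D4:**
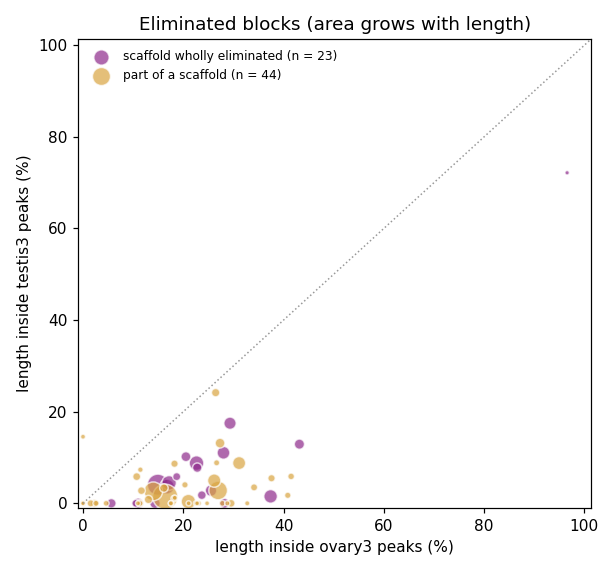
Percent of the length of each of 67 eliminated blocks inside testis3 peaks (vertical) against ovary3 peaks (horizontal), with point area growing with block length, purple for wholly eliminated scaffolds, yellow for parts of scaffolds, and the dotted line marking equal cover. 1 block lies above the line, 59 lie below it, and 7 lie at 0 on both axes.

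The longest blocks show the size of the difference. In the 1583 kb block on scaffold 35, testis3 peaks covered 1.43% and ovary3 peaks 16.4%. Its 14 testis3 peaks had 261 and 124 reads per kb, and its 92 ovary3 peaks 32.7 and 35.4. Scaffold 84, 1101 kb and wholly eliminated, was covered at 4.06% in testis3 and 14.9% in ovary3. The blocks on scaffold 54 (855 kb) and scaffold 10 (843 kb) had 2.61% and 2.80% in testis3, against 14.0% and 26.96% in ovary3. Scaffold 129 (519 kb) had 3.65% in testis3 and 16.8% in ovary3. In all 5 blocks testis3 had fewer peaks than ovary3, and their density was higher in column 1 of testis3 than in column 2.

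Among wholly eliminated scaffolds of at least 100 kb, scaffold 144 differed most, with cover of 1.51% in testis3 and 37.4% in ovary3. Scaffold 208 had 12.9% in testis3 and 43.2% in ovary3. On scaffold 204, 0 testis3 peaks and 13 ovary3 peaks were listed, and the ovary3 peaks covered 28.2%. Scaffold 166 had 2.77% in testis3 and 25.5% in ovary3, and scaffold 263 1.78% and 23.7%. Peaks of the 0hr list covered 23.1% of scaffold 144, those of 46hr 12.1% and those of 60hr 2.20%. Its cover was 0 in the 5day, 7day and L1 lists and 7.30% or less in the other 4 gonad lists.

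Across the 223 scaffolds of at least 200 kb, testis3 cover was higher on 21 and lower on 201. Its median was 6.40% in testis3 (0 to 22.5%) and 14.5% in ovary3 (0 to 43.2%). Cover correlated over these scaffolds at 0.399 (Pearson), a description over scaffolds of the same 2 lists. On scaffolds 197, 192 and 219, 0 ovary3 peaks were listed, while testis3 peaks covered 5.85%, 5.85% and 5.57%. In the ovary2 list these 3 scaffolds had 14.4%, 0 and 0, and in ovary1 13.3%, 7.21% and 14.7%. Scaffold 150 had 22.5% in testis3, against 17.2% in ovary3, and scaffold 196 had 14.6%, against 9.39%. In the other direction, scaffold 138, with 0 eliminated peaks, had 0 testis3 peaks and 34 ovary3 peaks covering 22.5%. It was covered at 5.30% in testis1, 3.39% in testis2 and 36.1% at 0hr.

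In 14398 windows of 20 kb, peaks of both lists lay in 4298 (29.9%), testis3 peaks alone in 990, ovary3 peaks alone in 4923 and neither in 4187. Cover correlated over windows at 0.401. Testis3 cover was at least 30 percentage points higher in 213 windows (1.48%) and at least 30 points lower in 1677 (11.6%). Of the 654 eliminated windows, 2 were at least 30 points higher in testis3 and 147 lower. Most of the windows with much less cover were windows with 0 testis3 peaks, 1079 of the 1677.

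Reads in peaks were tested in the 3998 windows of 20 kb with reads in both lists. They were summed over each list's own peaks, with no correction for peak length. Calls can thus come from the number or width of the listed peaks as well as from their read density. At adjusted p under 0.05 by edgeR, 1553 (38.8%) were higher and 829 (20.7%) lower in testis3. With TMM scaling, which moves the median of these windows to 0.01 in place of 0.41 on the log2 scale, the split was 1180 and 1193, so that the excess of higher windows rested on the scaling. Among the 138 eliminated windows with reads in both lists, 24 were higher (17.4%) and 30 lower (21.7%). Over all 9817 windows that passed the filter, 2698 (27.5%) were higher and 5699 (58.1%) lower. These counts hold 1039 windows with 0 ovary3 reads and 4780 with 0 testis3 reads. All such windows were called, because a list with no peak centred in a window reads as 0 there, so these calls restate where peaks were listed and are no test of reads. Without 1 ovary3 column, 570 or 572 of 5037 windows were lower, since the windows with ovary3 reads alone then miss the filter.

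Whether the difference at number 3 departed from the testis to ovary differences at numbers 1 and 2 was tested in the 2097 windows with reads in all 6 gonad lists. The difference was more toward testis in 1012 (48.3%) and more toward ovary in 491 (23.4%), at adjusted p under 0.05 by edgeR. This fit pools the spread of all 6 gonad lists. Testis3, whose columns were the furthest apart, is thus assumed to vary like the other lists, and the counts may be too high. Of the 60 eliminated windows among them, 15 went toward testis and 13 toward ovary. Over all 11805 windows the counts were 1472 (12.5%) toward testis and 2540 (21.5%) toward ovary. In 164 of these 1472 windows the ovary3 list, and in 1331 of these 2540 the testis3 list, had 0 reads. The fit is at its boundary where a whole list is at 0, so the counts over all windows are given only as the planned fit. Reads are scaled to each library's reads in peaks here too, so a list with less covered length has more scaled reads where it has peaks. They are also summed over each list's own peaks, so the calls hold differences in peak number and width too. In the 2097 windows the median log2 difference was 0.52 toward testis, and TMM scaling was not run there. Over all 11805 windows, TMM scaling gave 1138 toward testis and 2825 toward ovary.

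The runs of neighbouring windows with at least 30 points less cover in testis3 reached 140 kb, and those with more reached 60 kb. Runs were chosen by cover, so their values are a description with no test. Scaffold 125 from 240001 to 300000 had 75.4% of its length in testis3 peaks, against 17.98% in ovary3 peaks. Its scaled reads per kb of run were 123 and 69.5 in testis3, against 8.87 and 9.55 in ovary3. The same run was covered at 82.5% in testis1, 85.2% in testis2, 60.3% in ovary1 and 0.135% in ovary2, so that both other testis lists were high there.

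The other 4 retained runs with more testis3 cover had the same form. Scaffold 21 from 1420001 to 1480000 had 60.6% in testis3 and 11.2% in ovary3. Scaffold 91 from 660001 to 720000 had 69.9% in testis3 and 28.6% in ovary3. Scaffold 74 from 1 to 60000 had 41.1% in testis3 and 1.07% in ovary3, and scaffold 31 from 2040001 to 2080000 had 56.5% and 2.23%. In these 4 runs cover was 48.9% to 72.3% in testis1, 54.4% to 78.3% in testis2, 29.3% to 46.6% in ovary1 and 3.73% to 17.9% in ovary2.

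The retained run with the largest difference in covered length toward ovary3 lay on scaffold 6 from 3840001 to 3940000, with 3.69% in testis3 peaks and 58.8% in ovary3 peaks. Its scaled reads per kb of run were 1.33 and 1.04 in testis3, against 14.1 and 14.0 in ovary3. The 0hr list covered 72.8% of this run, the 46hr list 71.1% and the 60hr list 71.5%. Runs on scaffolds 47 (760001 to 880000), 1 (2100001 to 2200000), 112 (440001 to 540000) and 26 (1400001 to 1500000) had 0.899% to 3.80% in testis3, against 41.2% to 49.5% in ovary3. The 0hr list covered these 4 at 56.5% to 67.9%, and testis1 and testis2 at 3.19% to 20.04%.

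In eliminated DNA the runs with less testis3 cover were the longer ones. Scaffold 144 from 40001 to 180000 had 2.05% in testis3 and 71.3% in ovary3. Scaffold 10 from 2720001 to 2860000 had 4.32% in testis3 and 57.1% in ovary3. Scaffold 148 from 180001 to 260000 had 1.21% in testis3 and 71.3% in ovary3. At 0hr these runs were covered at 32.8%, 26.3% and 16.8%, and in the 5day, 7day and L1 lists at 0.

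2 eliminated windows went the other way. Scaffold 54 from 1240001 to 1260000 had 44.5% in testis3 and 0 in ovary3, with 193 and 85.9 scaled reads per kb of window in testis3. Scaffold 158 from 340001 to 360000 had 37.3% in testis3 and 3.65% in ovary3, with 159 and 62.5 scaled reads per kb of window in testis3 and 0 reads in the ovary3 columns, whose peak there is centred outside the window. Both windows were high in testis1 (40.8% and 42.8%) and ovary1 (25.7% and 26.4%), and both had 0 cover at 46hr and 60hr. At 5day they were covered at 35.4% and 41.2%.

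Peaks found in 1 of the 2 lists lay in different lists of the rest of the series. Of the 4152 list-only testis3 peaks, 55.0% overlapped a testis1 peak, 62.7% a testis2 peak, 36.3% an ovary1 peak and 14.6% an ovary2 peak. Of the 12803 list-only ovary3 peaks, 29.3% overlapped testis1, 32.3% testis2, 28.0% ovary1 and 32.5% ovary2. Of the list-only testis3 peaks, 28.3% met a 0hr peak, 34.0% a 46hr peak, 37.5% a 60hr peak, 35.2% a 5day peak, 33.7% a 7day peak and 36.5% an L1 peak. Of the list-only ovary3 peaks, 77.1% met a 0hr peak, 64.5% a 46hr peak, 56.3% a 60hr peak, 38.9% a 5day peak, 37.0% a 7day peak and 36.2% an L1 peak. The ovary3 shares were highest at 0hr and lowest in L1, while the testis3 shares stayed between 28.3% and 37.5%. The longer a list, the more overlap it can give, and the 0hr list is the longest in the series at 59.7 Mb.

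**Figure D5:**
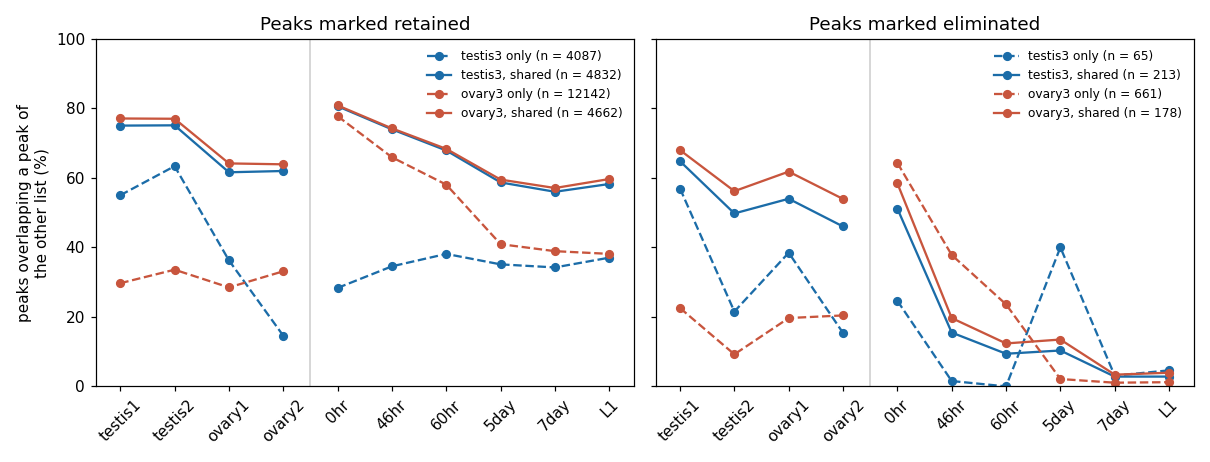
Percent of retained (left) and eliminated (right) peaks that overlap a peak of each of the other 4 gonad lists and of the lists of embryos and L1, for testis3 (blue) and ovary3 (red) peaks, list-only as dashed and shared as solid lines. List-only ovary3 peaks overlapped the 0hr list most (77.8% of retained and 64.3% of eliminated peaks), and list-only testis3 peaks marked retained overlapped the other testis lists most (55.0% and 63.4%).

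Shared peaks were found in more of the other lists than list-only peaks. The median shared testis3 peak overlapped peaks of 7 of the other 10 lists, the median list-only testis3 peak 3, and the median list-only ovary3 peak 4. Peaks of all 10 other lists were met by 1076 shared testis3 peaks (21.3%), 86 list-only testis3 peaks (2.07%) and 543 list-only ovary3 peaks (4.24%). None of the 10 lists was met by 108 shared testis3 peaks (2.14%), 500 list-only testis3 peaks (12.0%) and 1084 list-only ovary3 peaks (8.47%). Of list-only testis3 peaks, 1650 (39.7%) overlapped another testis list and no other ovary list, and 118 (2.84%) the reverse. Of list-only ovary3 peaks, 1963 (15.3%) overlapped another ovary list and no other testis list, and 2137 (16.7%) the reverse. Shared peaks leaned to testis too, with 915 (18.1%) testis alone and 205 (4.06%) ovary alone in testis3, and 834 (17.2%) and 177 (3.66%) in ovary3. The testis1 and testis2 lists covered 38.4 and 47.0 Mb, and ovary1 and ovary2 28.8 and 21.7 Mb. List-only testis3 peaks were also chosen for missing an ovary list. How much of the lean these give was not tested.

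Eliminated peaks are given against the embryo lists for shared and for list-only peaks. Of the 213 shared testis3 peaks marked eliminated, 51.2% met a 0hr peak, 15.5% a 46hr peak, 9.39% a 60hr peak and 10.3% a 5day peak. Of the 178 shared ovary3 peaks marked eliminated, 58.4% met a 0hr peak, 19.7% a 46hr peak, 12.4% a 60hr peak and 13.5% a 5day peak. Of the 65 list-only testis3 peaks marked eliminated, 24.6% met a 0hr peak, 1.54% a 46hr peak, 0 a 60hr peak and 40.0% a 5day peak. Of the 661 list-only ovary3 peaks marked eliminated, 64.3% met a 0hr peak, 37.8% a 46hr peak, 23.6% a 60hr peak and 2.12% a 5day peak. Among the 65 list-only testis3 peaks marked eliminated, the 26 that met a 5day peak lay on 10 scaffolds. These 26 had median densities of 418 and 174 reads per kb in the 2 testis3 columns. The other 39 had 71.4 and 34.2. Of the 26, 23 overlapped a testis1 peak, 17 an ovary1 peak and 9 a 0hr peak, and all 26 had the higher density in column 1 of testis3. Of the other 39, 14 overlapped a testis1 peak, 8 an ovary1 peak and 7 a 0hr peak. Column 1 was the higher in 36 of these 39 too. The 24 peaks of the 5day list that the 26 met had median densities of 12.4 and 23.4 reads per kb in the 5day columns, against medians of 15.1 and 14.8 over all 5day peaks. The 5day list held 102 eliminated peaks in all, of which 44 overlapped testis3, 33 ovary3 and 70 testis1.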

How the data were processed

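Peaks of the testis3 and ovary3 lists, each with 2 CENP-A libraries, were compared, with the other 10 lists as context. The submitters' processing notes name Bowtie2 and MACS2. Their versions and settings are not given in the sources used here. Scaffold, start, end, 2 coverage columns and the mark stand in each table, per the file headers. The deposited coverage columns hold whole-number read counts per peak, not normalized by the authors as far as the values show. Depth is known only within peaks (4646881 to 7971186 reads per library), and intervals and floors cover counting error only. The genome sequence was not used here. CENP-A input, CENP-C and histone libraries were not analysed here.

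Reads per kb were scaled to 1000000 reads in peaks of the library. Overlap needed 1 bp. Scaffold length was the last peak end over all lists. Peaks went to 20 kb windows (at least 5 kb at scaffold ends) by midpoint. edgeR 4.0.16 (R 4.3.3, glmQLFit and glmQLFTest, robust) tested shared regions and windows with at least 10 reads in at least 2 libraries, with Benjamini-Hochberg adjustment over all tested and a threshold of 0.05. Scripts were tested on simulated data. DESeq2 1.42.0, TMM, other windows, other overlaps and left-out libraries were alternatives. Scaling within shared regions, windows with reads in both or all lists and a 200 bp minimum were added after the data were seen, and windows with reads in both or all lists are reported ahead of the planned fits over all windows. Python 3.11.15, numpy 2.4.6, pandas 2.3.3 and scipy 1.17.1 gave the rest.

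Members, lists and tests were chosen with earlier results of these data known. Regions were named by rule: 5 runs each way in retained and 3 each way in eliminated DNA (2 were found upward), 5 scaffolds each way of at least 200 kb, the 5 largest differences among wholly eliminated scaffolds, the 5 longest eliminated blocks, and the 5 highest and 5 lowest folds among called regions with at least 2 kb in both lists. The densest peaks, the 3 regions with very short peaks and the 5day overlap were chosen after their values were seen.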

Additional observations from a re-analysis of the deposited data

Results flagged for a closer look

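The testis to ovary difference in reads per 20 kb window differed at number 3 from its mean at numbers 1 and 2 in 1012 windows toward testis and 491 toward ovary, among the 2097 windows with reads in all 6 gonad lists (edgeR's quasi-likelihood test of the interaction, Benjamini-Hochberg adjusted). The median over these windows was 0.52 toward testis on the log2 scale, and TMM scaling was not run there. Whether the excess toward testis rests on the scaling was thus not tested in these windows. The fit also lends testis3 the pooled spread of all 6 lists. Reads are summed over each list's own peaks, with no correction for peak length. Over all windows the counts were 1472 toward testis and 2540 toward ovary, and 1138 and 2825 with TMM scaling. However, 164 of the 1472 had 0 reads in ovary3 and 1331 of the 2540 had 0 reads in testis3, where the fit is at its boundary.

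Eliminated over retained cover was 0.629 in testis3 and 1.37 in ovary3 with all peaks of each list. Each value comes from 1 list, and the difference was not tested. With ovary3 cut to the covered length of testis3, the ovary3 ratio was 1.44. In the upper 50% of testis3 peaks by reads per kb the testis3 ratio was 0.956, and it was 1.10 when ranked by column 1 and 0.519 when ranked by column 2, so that its side of equal cover depended on the column.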

How the results depend on the processing

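Of 103 alternative values of the main results, 48 stayed within the range set for each, 54 moved and 1 turned sign. Only the difference in eliminated read share could turn sign, since the other values are counts, shares, indices or ratios. A change in which direction held more calls, or of a ratio to the other side of 1, is thus scored as moved. Cause was not tested except where the construction shows it. With at least 50% of a peak covered, 41.5% of testis3 and 16.8% of ovary3 peaks were shared. In the upper 50% of each list by reads per kb the shares were 47.0% and 24.1%, the Jaccard index 0.150, and the eliminated to retained cover ratio 0.956 in testis3 and 1.26 in ovary3. Ranked by column 1 of testis3 these were 46.2%, 23.7%, 0.148 and, in testis3, 1.10. Ranked by column 2 they were 42.0%, 21.8%, 0.130 and 0.519, so the testis3 ratio passed 1 by 1 column only. With ovary3 cut to the testis3 length the Jaccard index was 0.160 and the ovary3 ratio 1.44. On scaffolds of 1 mark the ratios were 0.761 and 1.43. Peaks in both lists lay in 18.8% of 10 kb and 50.2% of 50 kb windows. The eliminated read share, testis3 minus ovary3, was -1.99 points with all libraries, and -4.48 to 0.509 with each left out. Its sign turned without column 2 of testis3.

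Shared regions higher and lower in testis3 were 2645 and 5. They were 2 and 1 with TMM and with scaling within shared regions, 99 and 98 with DESeq2, 2421 and 9 with overlap of at least 50% of the narrower peak, and 2530 and 0 with peaks of at least 200 bp (0 and 0 scaled within shared regions). Leaving out each library gave 57 to 3761 higher and 2 to 93 lower, the lowest without an ovary3 column. With scaling within shared regions, leaving out column 1 or 2 of testis3 gave 1011 or 683 higher and 1132 or 1880 lower. Windows numbered 4130 and 8648 at 10 kb, 1381 and 2851 at 50 kb, where the number of windows changes, 1553 and 829 with reads in both lists, and 1180 and 1193 with TMM there. Leaving out 1 testis3 column there gave 2057 to 2193 higher and 1337 to 1442 lower. Over all windows, leaving out each library gave 2028 to 2206 higher and 570 to 6230 lower, with 570 and 572 without 1 ovary3 column, when the windows that hold only ovary3 reads miss the filter. The comparison with numbers 1 and 2 gave 491 windows toward ovary with reads in all 6 lists. Over all windows with TMM it gave 1138 toward testis and 2825 toward ovary. With the column number as replicate block, 2993 regions were higher and 6 lower, and 2660 and 5752 windows. Column numbers come from the headers and pair no samples in the labels.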
